A study of Thermothelomyces thermophilus with 4 samples.

Results

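The 6 genes described here encode the core enzymes by which Myceliophthora thermophila (also named Thermothelomyces thermophilus), a heat-loving mould that lives on plant litter, turns cellulose into glucose. They were listed by enzyme family, with earlier results of these data known: the cellobiohydrolases MYCTH_109566 (glycoside hydrolase family GH7) and MYCTH_66729 (GH6), the endoglucanases MYCTH_111372 (GH7) and MYCTH_86753 (GH5), and the beta-glucosidases MYCTH_115968 (GH1) and MYCTH_80304 (GH3). All 6 (gene models 109566, 66729, 111372, 86753, 115968 and 80304 of the deposited table) were found among 9110 models. The families are those given with the list. The gene table used here names no products and no proteins were at hand, so the families were not checked against sequence.

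Cellulose is broken down by several enzymes acting together. Endoglucanases cut inside the chains, cellobiohydrolases run along the chain ends and release the disaccharide cellobiose, GH7 enzymes typically from the reducing and GH6 enzymes from the non-reducing end, and beta-glucosidases split cellobiose and short oligomers into glucose. In filamentous fungi, GH7 and GH6 cellobiohydrolases are usually among the most abundant secreted proteins on plant biomass. Fungal GH3 beta-glucosidases are often secreted and GH1 enzymes often stay inside the cell.

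Poly(A) RNA came from mycelium of shaken cultures kept at 45 °C in a defined medium with 2% of a straw as the carbon source. Oat straw (24 h), triticale straw (24 h), canola straw (30 h) and flax straw (24 h) gave 1 library each, so no culture was replicated. No strain, genotype or other treatment is named in the labels. Canola differs from the other straws in time as well as in plant, and the 2 cannot be told apart. Oat and triticale are called cereal straws below and canola and flax dicot straws, a grouping taken from the plants and not from the labels.

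Levels are in FPKM (fragments per kilobase of gene span and scaled to the total of assigned reads). The libraries held 6495371 to 7977329 reads assigned to genes, recovered from the FPKM values and lengths. Each level below carries the exact Poisson interval (95%) of its reads, which covers counting error only, and 15.6 FPKM, the lowest of the 24 values, still rested on 395 reads. A lower level can mean fewer transcripts per cell or fewer cells that make them, which cannot be told apart in bulk RNA. No other gene overlapped the span of any of the 6 in RefSeq.

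All 6 transcripts were highest on oat straw, and 5 of 6 were lowest on flax straw. The exception was MYCTH_86753, which was lowest on canola. For MYCTH_80304, oat lay above triticale and canola by less than counting error. Of the 8230 tested genes (mean FPKM of at least 1), 16.1% were highest on oat, 20.8% were lowest on flax and 5.7% were both. The order between oat and triticale depends on scaling for the 2 beta-glucosidases: after median centring or removal of the trend with gene length, triticale was above oat for both, so that 4 of 6 were highest on oat. With the trend with mean expression removed, 5 of 6 were. The count of 5 lowest on flax was the same under each of these settings. The shares of tested genes were taken with the values as deposited only. The counts after rescaling therefore have no background share beside them.

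**Figure D1:**
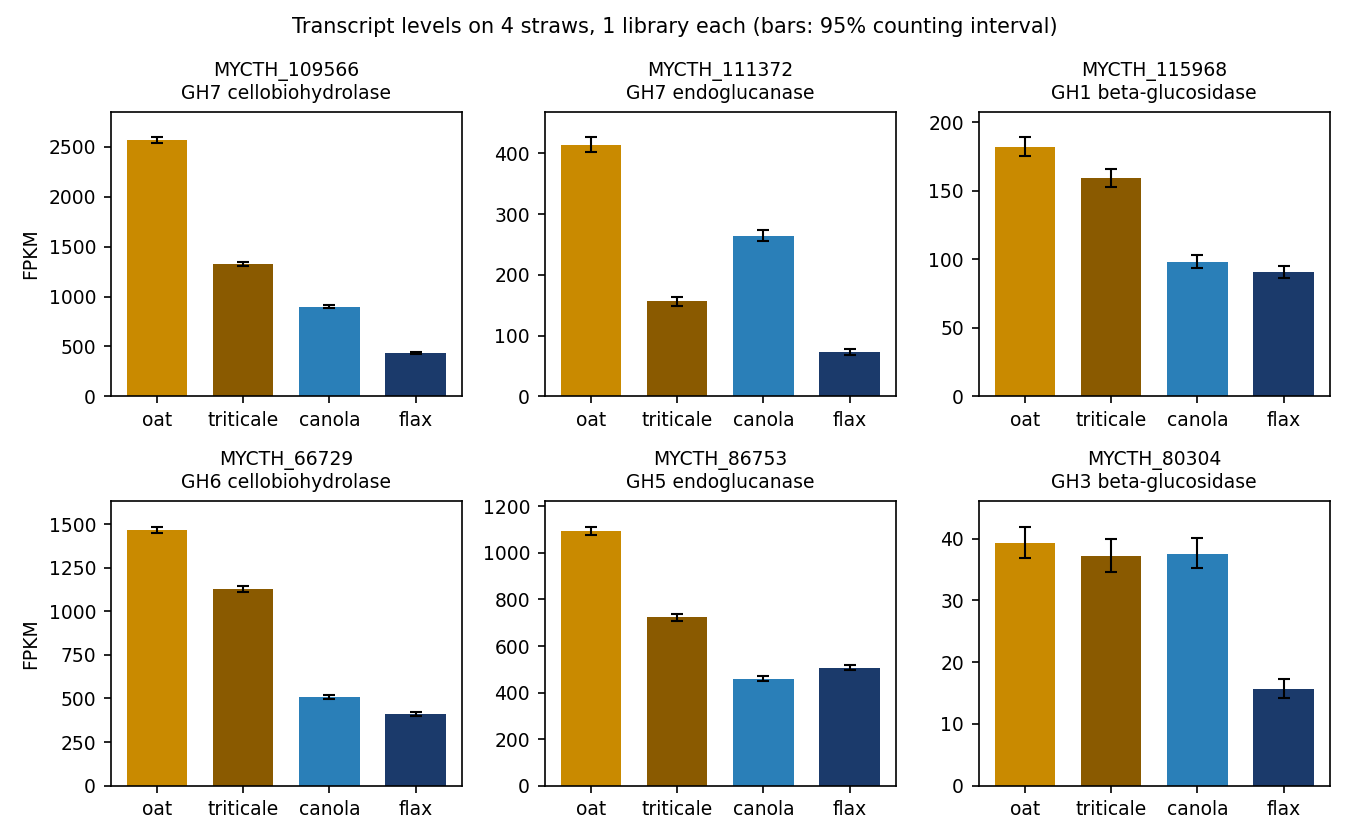
FPKM (vertical axis, a separate scale in each panel) of the 6 genes on oat, triticale, canola and flax straw, 1 library each, with exact 95% counting intervals. The tallest bar is oat in every panel, at 2567 FPKM for MYCTH_109566 and 39.3 FPKM for MYCTH_80304, and flax is the shortest in every panel but that of MYCTH_86753.

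The GH7 cellobiohydrolase MYCTH_109566 was the most abundant of the 6 on 3 straws. It had 2567 FPKM on oat (2541 to 2593), 1323 on triticale (1303 to 1343), 896 on canola (881 to 911) and 434 on flax (423 to 444). The levels step down in that order and no intervals overlap. Among all models it ranked 17 with oat, 69 with triticale, 71 with canola and 208 with flax.

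The GH6 cellobiohydrolase MYCTH_66729 had 1466 FPKM on oat (1447 to 1485), 1129 on triticale (1111 to 1146), 508 on canola (497 to 519) and 410 on flax (400 to 420). Both cereal libraries were thus more than 2-fold above both dicot libraries. This was the only one of the 6 with such a gap, 2.22-fold on the scale of FPKM + 1 between triticale and canola. It was second to the GH7 enzyme on oat, triticale and canola and number 3 on flax.

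Between the 2 cellobiohydrolases the balance differed by library. The level of MYCTH_109566 over that of MYCTH_66729 was 1.75 on oat (1.72 to 1.78), 1.17 on triticale (1.15 to 1.20), 1.76 on canola (1.72 to 1.81) and 1.06 on flax (1.02 to 1.09). Oat and canola gave nearly the same balance, and triticale and flax were closer to equal levels. Together the pair made up 70.0% of the summed FPKM of the 6 genes in the oat library, 69.5% in triticale, 62.0% in canola and 55.1% in flax.

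The endoglucanases had different profiles from each other. The GH7 endoglucanase MYCTH_111372 had 414 FPKM on oat (403 to 426), 157 on triticale (149 to 164), 265 on canola (256 to 274) and 73.1 on flax (68.5 to 77.9). It was the only one of the 6 with canola above triticale beyond counting error, by 1.69-fold (1.59 to 1.79), so the 2 classes of straw overlapped.

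The GH5 endoglucanase MYCTH_86753 had 1095 FPKM on oat (1078 to 1113), 724 on triticale (709 to 739), 460 on canola (449 to 471) and 508 on flax (496 to 519). It spanned 2.38-fold from its lowest to its highest library, against 5.67-fold for the GH7 endoglucanase. On flax it was the most abundant of the 6, at rank 153 of all models, ahead of both cellobiohydrolases. The level of MYCTH_111372 over that of MYCTH_86753 was 0.378 on oat (0.366 to 0.391), 0.216 on triticale (0.205 to 0.228), 0.575 on canola (0.552 to 0.600) and 0.144 on flax (0.134 to 0.154). The GH5 enzyme was therefore the more abundant endoglucanase transcript in all 4 libraries, least so on canola.

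The beta-glucosidase transcripts were the scarcest of the set on oat and canola. The GH1 enzyme MYCTH_115968 had 182 FPKM on oat (176 to 189), 159 on triticale (153 to 166), 98.3 on canola (93.7 to 103) and 90.6 on flax (86.1 to 95.2). The cereal libraries lay close together, as did the dicot libraries, with no overlap between the classes. Its span of 2.01-fold was the narrowest of the 6, and on triticale and flax it was above the GH7 endoglucanase, though on triticale the counting intervals of the 2 genes overlapped.

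The GH3 enzyme MYCTH_80304 had 39.3 FPKM on oat (36.8 to 42.0), 37.2 on triticale (34.6 to 39.9), 37.6 on canola (35.3 to 40.1) and 15.6 on flax (14.1 to 17.2). The first 3 differed by less than counting error, and flax alone was low. It was the lowest of the 6 in every library, with 72.3% of all models below it on oat and 44.5% on flax. The level of MYCTH_115968 over that of MYCTH_80304 was 4.63 in the oat library, 4.28 in triticale, 2.62 in canola and 5.79 in flax. Gene span, introns included, is the length behind all comparisons of level between genes, and coding lengths were not used here.

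Reads of the 6 genes together took 1.17% of all assigned reads in the oat library, 0.723% in triticale, 0.456% in canola and 0.311% in flax. Exact Clopper-Pearson intervals (95%) of these shares were at most 0.02 percentage points wide. The share of cellobiohydrolase reads was 0.834% on oat and 0.176% on flax. The endoglucanases took 0.279% on oat and 0.110% on flax, and the beta-glucosidases 0.0523% on oat and 0.0248% on flax. The make-up of the 6 differed between libraries too. The GH7 cellobiohydrolase held 44.5% of the summed FPKM of the 6 on oat and 28.3% on flax, while the GH5 endoglucanase held 19.0% on oat and 33.2% on flax. The beta-glucosidases held 3.84% in the oat library, 5.56% in triticale, 6.00% in canola and 6.94% in flax.

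**Figure D2:**
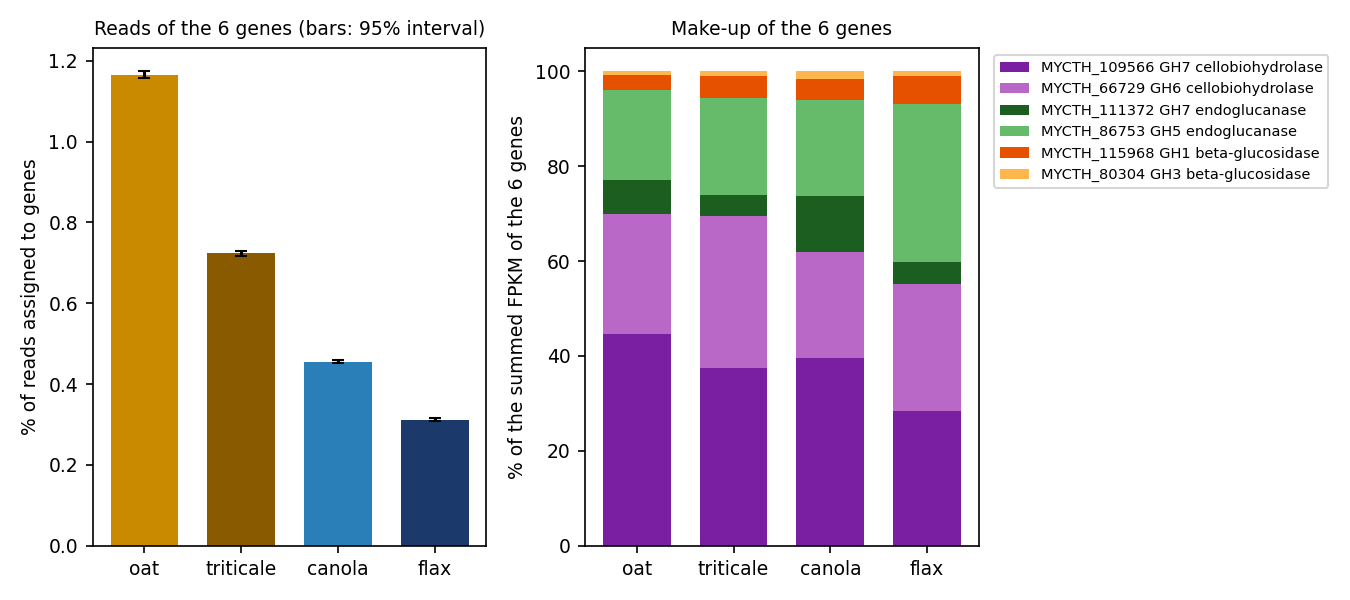
Left, reads of the 6 genes as a percentage of all assigned reads in each library, with exact 95% intervals, stepping down over oat (1.17%), triticale, canola and flax (0.311%). Right, each gene's percentage of the summed FPKM of the 6; the GH7 cellobiohydrolase is the largest block on oat, triticale and canola, and the GH5 endoglucanase on flax.

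The first comparison asked whether cereal straws differed from dicot straws in these transcripts. The mean of the cereal libraries was above that of the dicot libraries for all 6 genes. MYCTH_109566 averaged 1945 FPKM on cereal and 665 on dicot straws, and MYCTH_66729 averaged 1297 on cereal and 459 on dicot straws. Among the endoglucanases, MYCTH_111372 averaged 285 on cereal and 169 on dicot straws, and MYCTH_86753 averaged 909 on cereal and 484 on dicot straws. Among the beta-glucosidases, MYCTH_115968 averaged 171 on cereal and 94.5 on dicot straws, and MYCTH_80304 averaged 38.2 on cereal and 26.6 on dicot straws. For 4 of the 6 both cereal libraries lay above both dicot libraries, a pattern shared by 20.0% of tested genes. A gap of at least 2-fold was found for 1 of 6, against 1.09% of tested genes.

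None of the 6 passed the limma test across straws, which was fitted to log2(FPKM + 1) of all 8230 genes with the straw as the unit (Benjamini-Hochberg adjusted p under 0.05). In that fit 0.547% of tested genes passed as cereal-higher. At an unadjusted p under 0.05 the count was 4 of 6, against 3.8% of tested genes that were cereal-higher at that level. Limma without the mean-variance trend also called 0 of the 6. In that fit 4 of 6 were at an unadjusted p under 0.05, against 240 of 8230 tested genes that were cereal-higher at that level. These p-values rest on how far 2 straws of 1 class lie apart, since no culture was repeated. Limma took most of each gene's spread from the other tested genes. The prior degrees of freedom were 6.51, and 4.89 without the mean-variance trend.

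The cellobiohydrolases had the widest log2 ratios of cereal to dicot straws. The ratio was 1.56 ± 0.46 (SE, adjusted p = 0.216, limma) for MYCTH_109566 and 1.49 ± 0.30 (adjusted p = 0.0889, limma) for MYCTH_66729. It was 0.87 ± 0.61 (adjusted p = 0.574, limma) for MYCTH_111372, 0.88 ± 0.31 (adjusted p = 0.301, limma) for MYCTH_86753, 0.84 ± 0.25 (adjusted p = 0.227, limma) for MYCTH_115968 and 0.63 ± 0.43 (adjusted p = 0.557, limma) for MYCTH_80304. The median of the 6 was 0.87, while the median of all tested genes was -0.11 and 42.0% of tested genes were above 0. Each of the 6 was above at least 93.7% of tested genes in this fit. The share was lower under some other settings. MYCTH_86753 was above 87.6% with the trend with mean expression removed. Without flax, MYCTH_111372 was above 53.3% and MYCTH_80304 above 58.1%, and without oat MYCTH_111372 was above 68.1%.

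Calls among the 6 depended on scaling, and their ratios on single libraries. After median centring or removal of the trend with gene length the 2 cellobiohydrolases passed, with limma adjusted p of 0.0316 and 0.0309 for MYCTH_109566 and of 0.0275 and 0.0148 for MYCTH_66729. Centring took off a log2 median of -0.28 for triticale and 0.074 to 0.12 for the others, and the median ratio of all genes was then 0.099. The fit after median centring also took 1 spread for all genes of a level, so its p-values leave out a gene's own spread. After upper-quartile scaling MYCTH_66729 alone passed (adjusted p = 0.0396, limma). With the trend with mean expression removed none of the 6 passed. The log2 ratio was then 1.21 for MYCTH_109566, 1.18 for MYCTH_66729, 0.77 for MYCTH_111372 and 0.59 for MYCTH_86753. It was 0.77 for MYCTH_115968 and 0.73 for MYCTH_80304. In that fit 3 of 6 were at an unadjusted p under 0.05 (limma), against 386 of 8230 tested genes that were cereal-higher at that level.

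Without the canola library, only cultures of 24 h are compared and flax stands alone for the dicot straws, assumed to vary like the cereal straws. The log2 ratio was then 2.08 for MYCTH_109566, 1.65 for MYCTH_66729 and 1.79 for MYCTH_111372. It was 0.81 for MYCTH_86753, 0.90 for MYCTH_115968 and 1.24 for MYCTH_80304. The fit took 1 spread for all genes of a level (infinite prior degrees of freedom), so a gene's own spread did not enter. MYCTH_111372 lay 1.40 apart on the log2 scale between oat and triticale, and no p-value is given for this fit. The fit without flax took its spread in the same way. Without flax the ratio was -0.054 for MYCTH_111372 and 0.023 for MYCTH_80304. The ratio of MYCTH_80304 thus rests on the low flax library. That of MYCTH_111372 depends on the oat library as well. Without triticale the ratio was 1.57 for MYCTH_111372 and 0.67 for MYCTH_80304. Without oat these ratios were 0.17 and 0.59, in that order.

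**Figure D3:**
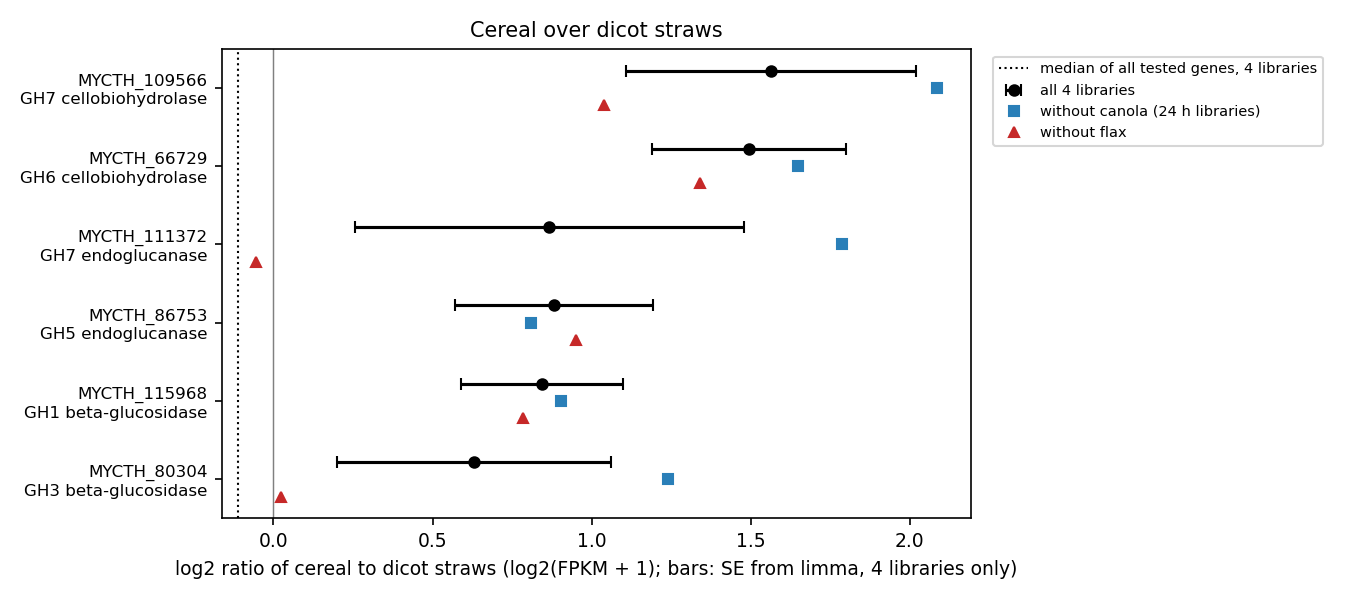
Log2 ratio of cereal to dicot straws of each gene (horizontal axis) for all 4 libraries (circles, with the SE from limma), without canola (squares) and without flax (triangles, like the squares with no error). With 4 libraries the 6 ratios lie between 0.63 and 1.56, right of the all-gene median at -0.11 (dotted); without flax those of MYCTH_111372 (-0.054) and MYCTH_80304 (0.023) lie near 0.

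Single libraries were then set against each other in all 6 pairs of straws. These ratios of FPKM have no replicate check, and their exact Clopper-Pearson intervals (95%) cover counting error only. A gene counted as higher in a library at 2-fold or more on the scale of FPKM + 1. The pairs share libraries, so they are not independent of each other.

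Oat over flax was the widest pair, and both libraries were of 24 h. All 6 genes were at least 2-fold higher on oat, against 5.26% of tested genes. The ratio was 5.92 for MYCTH_109566 (5.77 to 6.08), 5.67 for MYCTH_111372 (5.28 to 6.09) and 3.58 for MYCTH_66729 (3.48 to 3.67). It was 2.52 for MYCTH_80304 (2.23 to 2.84), 2.16 for MYCTH_86753 (2.10 to 2.22) and 2.01 for MYCTH_115968 (1.89 to 2.14). The GH1 beta-glucosidase sits at the 2-fold line within counting error. With a pseudocount of 10 the count was 4 of 6, against 2.15% of tested genes, with both beta-glucosidases below 2-fold. It was also 4 of 6 with the expression trend removed, against 5.7% of tested genes, with MYCTH_86753 and MYCTH_115968 below. The median ratio of all tested genes was 0.971.

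Triticale over flax, the other pair of a cereal and a dicot straw at 24 h, gave 4 of 6 at 2-fold or more, against 5.29% of tested genes. The ratios were 3.05 for MYCTH_109566 (2.97 to 3.14), 2.75 for MYCTH_66729 (2.68 to 2.83), 2.38 for MYCTH_80304 (2.10 to 2.69) and 2.14 for MYCTH_111372 (1.98 to 2.32). MYCTH_115968, at 1.76, and MYCTH_86753, at 1.43, were below 2-fold. The median of all tested genes was 0.874 in this pair, so each of the 6 lay above it. Removal of the trend with mean expression gave 2 of 6, against 8.76% of tested genes. Median centring and removal of the length trend each gave 5 of 6, against 11.4% and 9.37% of tested genes in that order, and a pseudocount of 10 gave 3 of 6, against 2.76%.

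Against canola the members separated differently. Oat over canola gave 3 of 6 at 2-fold or more, against 2.6% of tested genes: MYCTH_66729 at 2.89 (2.82 to 2.96), MYCTH_109566 at 2.86 (2.81 to 2.92) and MYCTH_86753 at 2.38 (2.32 to 2.45). The others were at 1.85 (MYCTH_115968), 1.57 (MYCTH_111372) and 1.05 (MYCTH_80304, 0.954 to 1.15). The GH3 gene, 2.52-fold apart between oat and flax, was thus within counting error between oat and canola.

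Triticale over canola gave 1 of 6, against 3.13% of tested genes. MYCTH_66729 had a ratio of 2.22 (2.17 to 2.28), while MYCTH_111372 ran the other way at 0.592 (0.557 to 0.628). MYCTH_115968 had 1.62, MYCTH_86753 1.57, MYCTH_109566 1.48 and MYCTH_80304 0.988 (0.898 to 1.09). Median centring gave 3 of 6, against 13.6% of tested genes, removal of the length trend 3 of 6 against 8.93%, and removal of the expression trend 0 of 6 against 8.66%. MYCTH_80304 was at 1.31 of FPKM + 1 after median centring.

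The second question was how far the straws of 1 class differed. Oat over triticale gave 1 of 6 at 2-fold or more, where 14.2% of tested genes were, so the share among the 6 was near the background with the values as deposited. The count stayed at 1 of 6 with a pseudocount of 10, median centring or the length trend removed, while the share of tested genes was 1.42%, 3.85% and 5.76% in that order. Both GH7 genes had the widest ratios, 2.65 for MYCTH_111372 (2.50 to 2.80) and 1.94 for MYCTH_109566 (1.91 to 1.98). MYCTH_86753 had 1.51 (1.48 to 1.55) and MYCTH_66729 1.30 (1.27 to 1.33). The beta-glucosidases were at 1.15 (MYCTH_115968, 1.08 to 1.21) and 1.06 (MYCTH_80304, 0.960 to 1.17), close to the median of all tested genes, 1.14. After median centring these 2 ratios were 0.893 and 0.824 of FPKM + 1, below 1. With the trend with mean expression removed the count was 2 of 6, against 4.7% of tested genes.

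Canola over flax, which also compares 30 h with 24 h, gave 3 of 6 at 2-fold or more, against 7.91% of tested genes. One gene of each enzyme type was above 2-fold: MYCTH_111372 at 3.62 (3.37 to 3.90), MYCTH_80304 at 2.41 (2.14 to 2.71) and MYCTH_109566 at 2.07 (2.01 to 2.13). Its partner in each type was close to 1, with 1.24 for MYCTH_66729 (1.20 to 1.28), 1.09 for MYCTH_115968 (1.01 to 1.16) and 0.906 for MYCTH_86753 (0.877 to 0.936). The median of all tested genes was 0.989. The count was 2 of 6 with a pseudocount of 10, against 3.55% of tested genes, with MYCTH_80304 at 1.86 of FPKM + 10. It was also 2 of 6 after upper-quartile scaling, against 6.96%, and with the expression trend removed, against 8.04%. MYCTH_109566 was at 1.94 and 1.89 under these 2 settings. The cellobiohydrolase, endoglucanase and beta-glucosidase of highest ratio were thus the GH7, GH7 and GH3 genes.

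**Figure D4:**
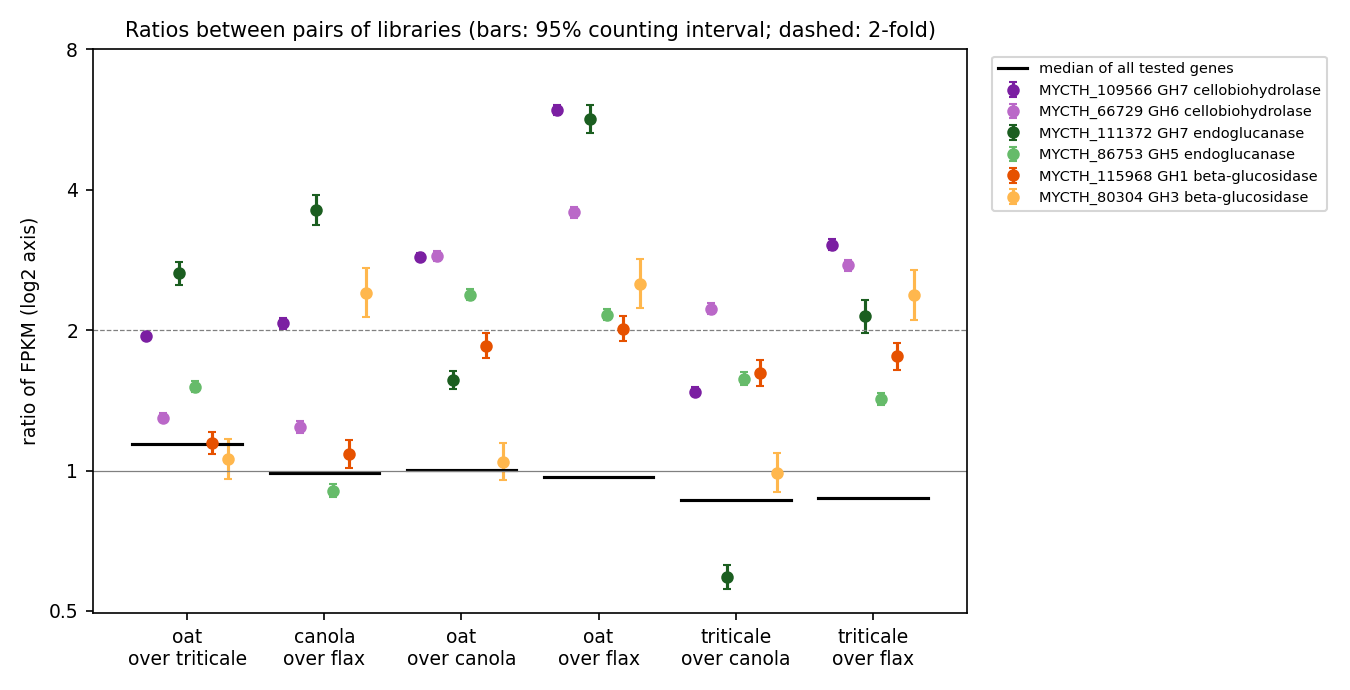
Ratios of FPKM (log2 axis) of the 6 genes in 6 pairs of libraries, with exact 95% counting intervals; black lines mark the median of all tested genes and the dashed line 2-fold. All 6 points reach 2-fold in oat over flax, 3 do in canola over flax and in oat over canola, and MYCTH_111372 lies below 1 (0.592) in triticale over canola.

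Profiles over the 4 libraries were compared by the Euclidean distance between values of log2(FPKM + 1), each gene centred on its own mean, so that 0 means the same shape. Among the 6, the GH5 endoglucanase MYCTH_86753 and the GH1 beta-glucosidase MYCTH_115968 were the closest pair (0.341). The 2 cellobiohydrolases came next (0.666). The endoglucanases MYCTH_111372 and MYCTH_86753 were the farthest apart (1.51), with 9.07% of genes (mean FPKM of at least 10) closer to MYCTH_111372. MYCTH_86753 and MYCTH_80304 were 1.06 apart, with 42.9% of these genes closer to MYCTH_86753. These shares were counted from different genes, so they cannot be set against each other. The 2 GH7 genes were at 0.948 from each other.

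The genes nearest to each member were sought among 6000 others with a mean FPKM of at least 10. The distances describe 4 libraries and say nothing about function. For MYCTH_109566 the nearest 3 were MYCTH_116553 (distance 0.219, 273 FPKM on oat and 55.7 on flax), cbdA (0.329) and MYCTH_81753 (0.364). For MYCTH_66729 they were MYCTH_111741 (0.303), MYCTH_101345 (0.317) and MYCTH_111088 (0.327, 570 FPKM on oat and 162 on flax). MYCTH_111372 had no gene closer than MYCTH_2308108 (0.386), followed by MYCTH_58882 (0.406) and MYCTH_2306607 (0.421).

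For MYCTH_86753 the nearest genes were MYCTH_2300347 (0.122), MYCTH_63778 (0.134) and MYCTH_2296844 (0.175). For MYCTH_115968 they were MYCTH_2302048 (0.101), MYCTH_2301661 (0.134) and MYCTH_2313775 (0.144). For MYCTH_80304 they were MYCTH_2303183 (0.0853, 39.3, 36.7 and 38.0 FPKM with oat, triticale and canola and 16.7 FPKM with flax), MYCTH_2302217 (0.158) and MYCTH_46583 (0.162, 373 FPKM on oat and 140 on flax). Flat profiles lie close to many genes, so distances are not comparable between members.

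The 1 gene of the same pathway that carries a symbol in the gene table is cbdA, encoding cellobiose dehydrogenase, which oxidizes the cellobiose that cellobiohydrolases release. Its level was between those of the GH5 and GH7 endoglucanases in all 4 libraries, though on canola it was within counting error of the GH7 enzyme. Its ratio of oat to flax was 6.77 (6.52 to 7.04), against 5.92 for MYCTH_109566, and of canola to flax 2.24 (2.15 to 2.34), against 2.07. Other cellulose-degrading genes could not be listed, since 0 entries of the gene table carry product text.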

How the data were processed

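The authors deposited 1 table of FPKM values per gene model with the gene length in bases, per the file headers. How reads were aligned and counted, and on which build, is not given in the sources used here. FPKM times length summed to the same total in each column and gave whole reads for 100% of values (tolerance 0.001), from which reads were recovered for intervals. Of 9110 models, 8230 were tested (mean FPKM 1 or more) and 880 left out. Numbers were matched to RefSeq locus tags (ASM22609v1) for names and gene order only, and no coordinates or sequences are printed. log2(FPKM + 1), computed from the deposited FPKM, was fitted with limma 3.58.1 in R 4.3.3 (mean-variance trend, two-sided), cereal against dicot straws, with 2 libraries each. The scale understates changes of low genes. The script was tested on simulated data. Alternatives were pseudocounts of 10 and 0.1, no filter or a mean of 10, median centring, upper-quartile scaling, no mean-variance trend, lowess trends (span 0.3) with length or expression removed, and each library left out. Genes named for like profiles are the 3 nearest to each member. Homologues and coding lengths were planned and not analysed here, since no proteins were at hand. The members and lists were chosen with earlier results of these data known. The intervals cover counting error only and treat each read as independent. PCR copies are not independent molecules, so the intervals may be too narrow.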

Additional observations from a re-analysis of the deposited data

How the results depend on the processing

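No paired analysis was possible because each straw has 1 library and the labels carry no replicate numbers. Of 78 alternative values of the 6 genes' log2 ratios of cereal to dicot straws, 77 were above 0. All reuse the same 4 libraries, and a change of filter or of the mean-variance trend cannot alter a ratio. The count is therefore no independent support. MYCTH_111372 ranged from -0.054 (without flax) to 1.79 (without canola). For MYCTH_115968 the log2 ratio of oat to triticale was -0.16 after median centring and -0.17 with the length trend removed. Limma called 55 genes (45 cereal-higher), against 426 (151) after median centring, 270 (109) with the length trend removed, 120 (70) after upper-quartile scaling, 86 with the expression trend removed, 17 (16) without the mean-variance trend and 0 (0) with no filter on low values (849 at an unadjusted p under 0.05). Without 1 library the counts were 0 to 372 (0 to 165). Of the 6 genes, 0 were called with 4 libraries, 2 after median centring, 2 with the length trend removed and 1 after upper-quartile scaling. At an unadjusted p under 0.05, 4 of 6 stood with 4 libraries and 1 to 5 without 1 library. The 2-fold gap, cereal higher, held for 90 genes, for 58 with a pseudocount of 10 and for 118 to 279 without 1 library. For the 6 genes it held for 1, for 0 with the expression trend removed and for 1 to 4 without 1 library. In single pairs with the expression trend removed, 2 of 6 reached 2-fold in oat over triticale, against 4.7% of tested genes. The count was also 2 in triticale over flax, against 8.76%. With a pseudocount of 10, 4 of 6 did in oat over flax (2.15%) and 2 of 6 in canola over flax (3.55%). In triticale over canola the count was 3 after median centring (13.6%) and 3 with the length trend removed (8.93%). It was 0 with the expression trend removed (8.66%). By summed FPKM, the 6 genes took 0.919% with oat, 0.534% with triticale, 0.362% with canola and 0.237% with flax. The causes of these shifts were not tested. Depth did not limit the 24 levels; the lack of replicate cultures does.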
